A study of Mus musculus with 41 samples.

Results

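The 42 genes described here encode proteins that copy DNA in S phase, from the licensing of replication origins to the packaging of the new strands. They were chosen by symbol, as a list of replication and S-phase genes, with earlier results of these data known. All 42 were found among the 24371 genes of each of the 4 count tables of fetal mouse lung. Levels are CPM, counts scaled to the total of their library, and a fold change compares libraries and never genes, since gene lengths were not used. Replication starts where the origin recognition complex, Cdc6 and Cdt1 load the ring of Mcm2 to Mcm7 onto DNA. Cyclin E and the E2F factors then drive entry into S phase, Cdc45 and the GINS complex turn the ring into a moving helicase, and polymerases held by the Pcna clamp copy both strands from nucleotides that enzymes such as Rrm1 and Rrm2 supply. In the fetal lung these genes are known as markers of dividing cells, and glucocorticoids are known there for slowing growth as the lung matures.

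The study profiled RNA from 26 single cells and 11 bulk libraries. Dexamethasone is a synthetic glucocorticoid. In the first set, pregnant dams received dexamethasone at 1 mg/kg or saline into the abdomen at E18.5, and after 2 hours the lungs of Twist2Cre;Rosa26mT/mG fetuses were pooled by genotype and sorted for GFP without tdTomato, which gave 4 dexamethasone and 2 saline pools. In this mouse Twist2Cre marks mesenchyme, and Twist2 itself was listed at no more than 0.901 CPM in any pool, against 1765 to 3084 CPM of the mesenchymal collagen gene Col1a1. In the second set, at E18.5, 1 CD106+ library came from treatment with dexamethasone at 1 mg/kg, and the labels name no treatment for the 2 CD106+ and 2 CD106- libraries. CD106 is the surface protein encoded by Vcam1, which stood at 268 CPM in the dexamethasone CD106+ library, at 551 and 687 CPM in the CD106+ libraries and at 1.35 and 3.00 CPM in the CD106- libraries. The labels describe depletion of CD45, CD31 and CD309 for accessibility samples only, and they give neither the strain nor the injection time of the CD106 RNA libraries. In the third set, wild-type C57Bl6/J dams were injected at E17.5 with dexamethasone at 2 mg/kg or with saline, and 24 hours later 15 cells of the dexamethasone group and 11 of the saline group were profiled singly, so that each group counts as 1 sample. Mesenchymal markers, 10 in number, were detected at 7 to 9 per cell. Epcam, an epithelial marker, had no count in any cell, but 2 to 8 of 10 epithelial markers were detected per cell. Epithelial sums reached 8983 CPM, in dexamethasone cell 11, and endothelial sums 5872 CPM, in saline cell 1. The endothelial marker Pecam1 passed 100 CPM in 1 dexamethasone cell and 5 saline cells.

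Library totals were 2220647 to 4224245 counts in the dexamethasone pools and 1670896 and 2431420 in the saline pools. They were 3790544 in the dexamethasone CD106+ library, 4987175 and 7133941 in the CD106+ libraries, 5198705 and 6007400 in the CD106- libraries and 215623 to 1787997 in the cells. Whether the pools and the fractions stem from different litters is not stated in the labels, and p-values therefore cover the spread of these samples alone, part of which may be technical. In bulk libraries, fewer cells in S phase and less RNA per cell cannot be told apart. The saline pools also stood apart from the dexamethasone pools in cartilage markers and in Xist, as given beside the results.

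Promoters are shown for the members called in the tested bulk comparisons, and for the helicase genes Mcm3 and Mcm6, shown for carrying the short motifs searched below. The printed windows therefore do not represent the list. Windows of 300 bases, from 250 before to 50 after the annotated start, were taken from RefSeq on GRCm38.p6, where 34 members matched with 40 windows. E2F factors are known to bind the motifs TTTCCCGC, TTTCGCGC, TTTGCCGC and TTTGGCGC, which were searched on both strands (GCGGGAAA, GCGCGAAA, GCGGCAAA and GCGCCAAA on the other) and are in capitals below, with overlapping copies run together. The sequences are of Mcm5 on the plus strand at chr8:75109259-75109558, Mcm3 on the minus strand at chr1:20820263-20820562, Mcm6 on the minus strand at chr1:128359656-128359955, E2f2 on the plus strand at chr4:136172024-136172323 and Brca1 on the minus strand at chr11:101551906-101552205, each printed 5′ to 3′ along its gene.
Mcm5: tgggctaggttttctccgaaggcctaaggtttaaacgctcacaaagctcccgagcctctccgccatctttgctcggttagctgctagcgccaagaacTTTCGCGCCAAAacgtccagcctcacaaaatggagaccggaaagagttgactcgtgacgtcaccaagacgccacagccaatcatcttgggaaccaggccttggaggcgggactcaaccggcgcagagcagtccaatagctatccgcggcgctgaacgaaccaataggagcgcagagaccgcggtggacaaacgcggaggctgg
Mcm3: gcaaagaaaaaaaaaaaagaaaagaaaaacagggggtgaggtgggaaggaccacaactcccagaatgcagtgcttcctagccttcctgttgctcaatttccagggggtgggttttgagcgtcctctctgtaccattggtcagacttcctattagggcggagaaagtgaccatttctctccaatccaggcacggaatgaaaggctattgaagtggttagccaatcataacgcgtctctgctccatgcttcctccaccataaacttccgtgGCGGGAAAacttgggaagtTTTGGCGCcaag
Mcm6: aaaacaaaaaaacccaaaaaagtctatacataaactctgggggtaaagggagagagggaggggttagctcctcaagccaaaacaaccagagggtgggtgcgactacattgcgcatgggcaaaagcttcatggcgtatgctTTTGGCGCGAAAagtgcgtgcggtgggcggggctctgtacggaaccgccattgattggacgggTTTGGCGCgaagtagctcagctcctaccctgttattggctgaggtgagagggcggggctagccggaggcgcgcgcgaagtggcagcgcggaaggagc
E2f2: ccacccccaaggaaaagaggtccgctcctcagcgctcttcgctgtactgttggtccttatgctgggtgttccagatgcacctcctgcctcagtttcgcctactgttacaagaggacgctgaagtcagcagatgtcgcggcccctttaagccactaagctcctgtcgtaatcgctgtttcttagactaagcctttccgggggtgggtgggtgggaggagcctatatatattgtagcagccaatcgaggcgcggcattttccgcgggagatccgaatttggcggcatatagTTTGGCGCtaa
Brca1: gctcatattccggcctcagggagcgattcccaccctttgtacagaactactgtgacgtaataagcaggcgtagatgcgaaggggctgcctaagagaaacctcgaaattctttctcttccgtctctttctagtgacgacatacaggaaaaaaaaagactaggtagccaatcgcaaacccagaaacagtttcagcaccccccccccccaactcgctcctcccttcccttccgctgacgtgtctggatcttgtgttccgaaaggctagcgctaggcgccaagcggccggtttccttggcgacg

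The Mcm5 window held 2 overlapping copies, which began 153 and 149 bases before the start. Mcm6 held 3 copies, of which a pair overlapped at 110 and 106 bases before the start and the other lay 47 bases before it. Mcm3 held 2 copies and E2f2 held 1, all after the start, and the other annotated E2f2 start had none. Brca1 had no such letters in its window. Nor had Mcm10, Rrm2 and Chaf1b, which are not printed and were among the largest ratios in the dexamethasone CD106+ library. Over the list, 14 of 40 windows (35%) held a copy, against 744 of 32851 windows of all genes (2.26%), 8 of 19 windows of other G1/S regulators (42.1%), 11 of 47 windows of other replication genes (23.4%) and 1 of 18 windows of mitosis genes (5.56%). By role they were found in 5 of 9 helicase windows, 3 of 4 licensing windows and 2 of 2 polymerase windows, and in 0 of 5 windows of the nucleotide supply genes. The box CCAAT, or ATTGG on the other strand, was in 24 of 40 member windows (60%), including 9 of 9 helicase windows, against 37.4% of all windows and 16 of 18 windows of mitosis genes (88.9%). A match is a run of letters and not a measured binding site.

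Summed over the 42 genes, the level was 335, 446, 499 and 432 CPM in the dexamethasone pools, against 483 and 990 CPM in the saline pools. It was 871 CPM in the dexamethasone CD106+ library, against 2344 and 2608 CPM in the CD106+ libraries, and 2667 and 2247 CPM in the CD106- libraries. Saline pool 2 lay above the dexamethasone CD106+ library, which the 5 other pools lay below, and within the CD106 set the dexamethasone library stood below all 4 others. For 36 of 42 members (85.7%) the lowest of the CD106+ and CD106- libraries lay above the highest mesenchymal pool, which was so for 24.7% of 11055 genes at 10 CPM or more, and the tables shared no normalization beyond library totals. The summed level of 20 mitosis genes, such as Mki67 and Top2a, was 730, 849, 1213 and 762 CPM in the dexamethasone pools against 1245 and 2397 CPM in the saline pools. It was 2188 CPM in the dexamethasone CD106+ library, 8069 and 6205 CPM in the CD106+ libraries and 7549 and 6852 CPM in the CD106- libraries.

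**Figure D1:**
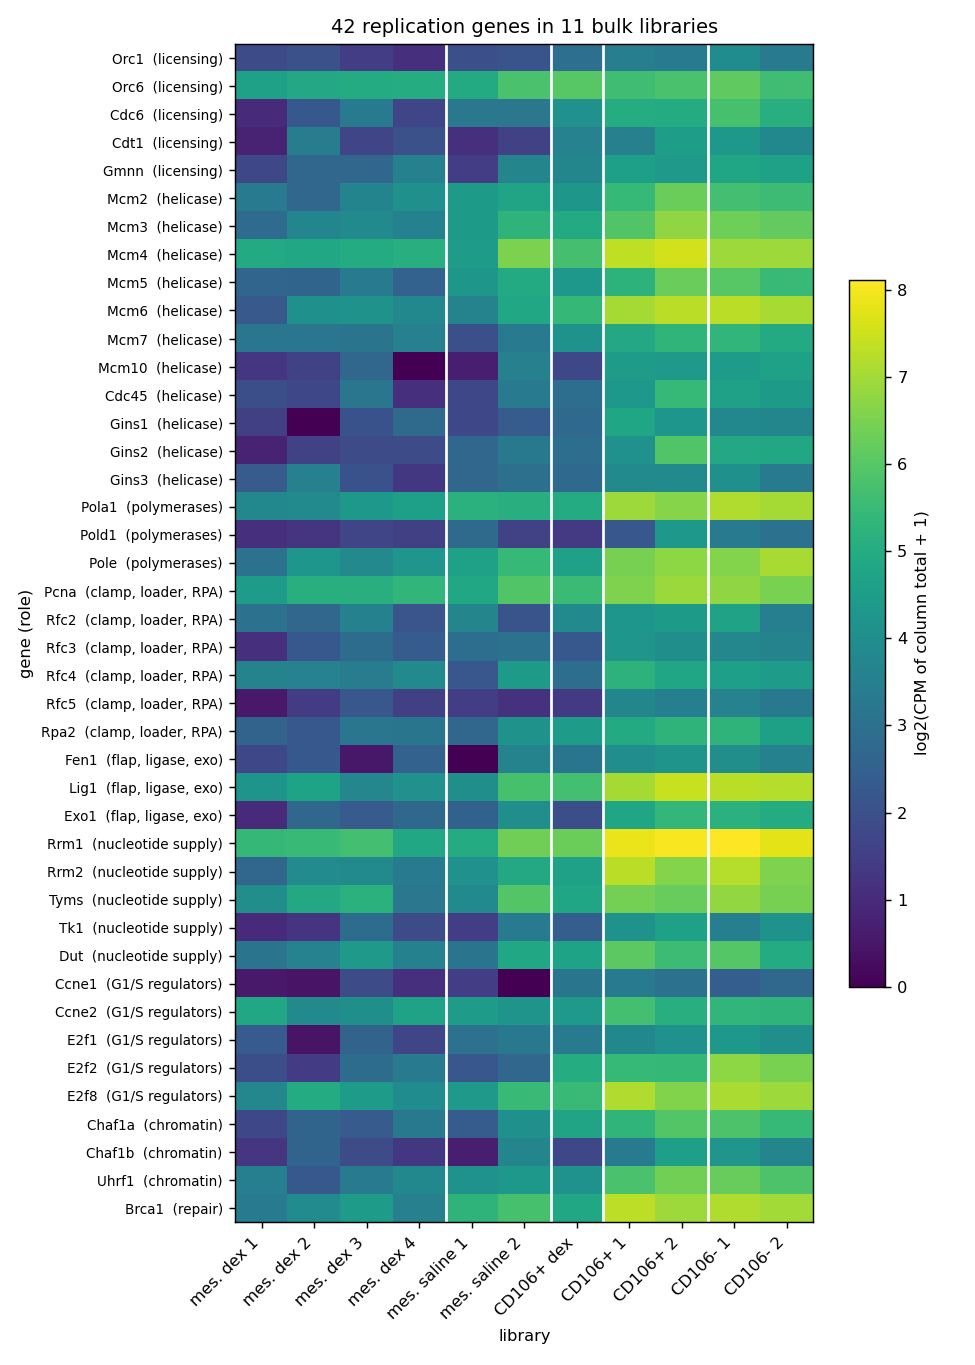
Level of each of the 42 genes (rows, with roles) in the 11 bulk libraries (columns), as log2 of CPM plus 1; white lines divide the groups. The 6 mesenchymal pools at the left are dark, and the dexamethasone CD106+ column is darker than the 4 other CD106 columns in 38 of 42 genes.

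**Figure D2:**
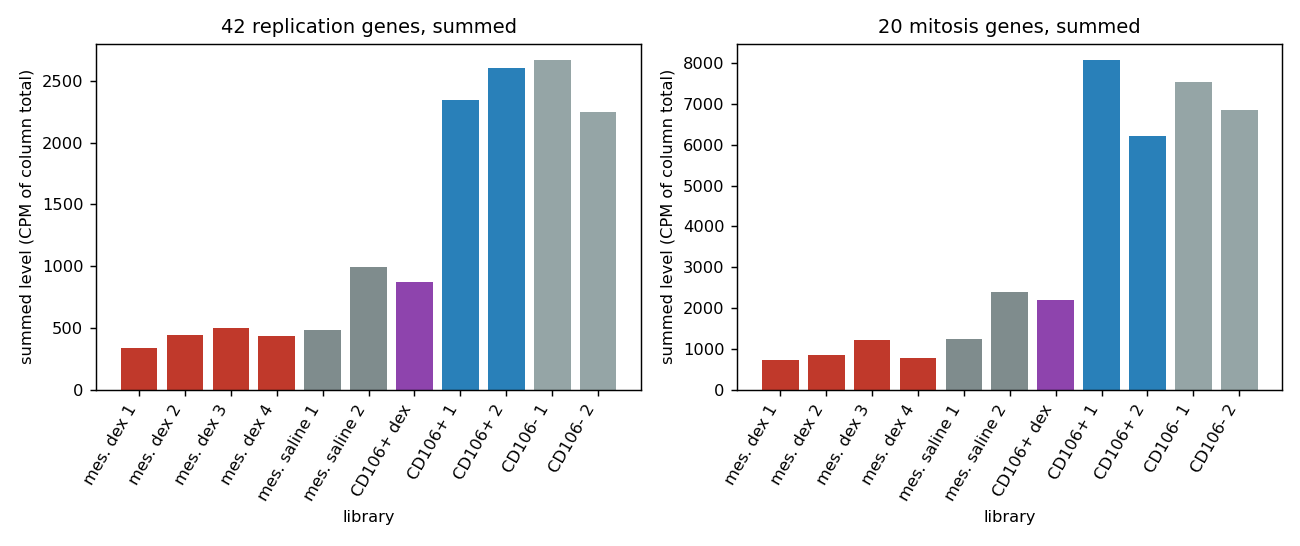
Summed CPM of the 42 replication genes (left) and of 20 mitosis genes (right), 1 bar per bulk library, from 0. The dexamethasone CD106+ bar stands at 871 CPM for the replication genes and at 2188 CPM for the mitosis genes, below the 4 other CD106 bars in both.

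The first comparison asks which of these genes differed in mesenchyme 2 hours after dexamethasone. Brca1, which protects and repairs stalled forks, and Mcm5, a subunit of the helicase ring, were the 2 members that fell, and none rose, among 37 members high enough to test. By edgeR's quasi-likelihood test with adjustment over all genes, 0.740% of 11356 genes were lower, 1.95% higher and 2.69% either. The log2 fold change was below 0 in 34 of the 37 members (all genes, 50.9%), with a median of -0.82 (all genes, -0.01). That lean hangs on saline pool 2, without which 18 of 39 members lay below 0 with a median of 0.12 (all genes, 46.7% and 0.06). Without saline pool 1 the figures were 34 of 38 and -1.13 (all genes, 46.9% and 0.05).

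Brca1 (chr11:101488761-101551955, GRCm38.p6) stood at 9.23, 14.3, 21.6 and 10.6 CPM in the dexamethasone pools, against 38.3 and 52.6 CPM in the saline pools. All 4 dexamethasone pools lay below both saline pools, with means of 13.9 ± 5.56 CPM (SD, n = 4) and 45.5 ± 10.1 CPM (SD, n = 2). The edgeR log2 fold change was -1.66 (SE 0.41, adjusted p = 0.036), and over 17 alternatives the adjusted p ran from 0.0071 to 0.999. Mcm5 (chr8:75109468-75128439) had 5.21, 5.10, 9.01 and 4.90 CPM in the dexamethasone pools, against 18.6 and 30.0 CPM in the saline pools. These groups did not overlap either, and dexamethasone pool 3 stood above the other 3. The edgeR log2 fold change of Mcm5 was -1.94 (SE 0.50, adjusted p = 0.045; 0.021 to 0.999 over the alternatives). Each gene passed in 9 of the 17 alternatives. Both calls were lost in the other 8. With the replicate number as a block the edgeR fold changes were -1.91 for Brca1 (adjusted p = 0.11) and -2.13 for Mcm5 (0.19), and with an Xist covariate -1.84 (0.18) and -2.30 (0.21), each larger than as reported. With a cartilage covariate they were smaller, at -0.64 and -1.22 (edgeR adjusted p = 0.999 for both). The remaining losses came without dexamethasone pool 1, 2 or 4 or either saline pool.

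Markers of 4 other cell types separated the groups, all lower in the dexamethasone pools. The 9 cartilage markers in the tables summed to 17.52, 57.1, 383 and 68.3 CPM in the dexamethasone pools, against 1458 and 610 CPM in the saline pools. Col2a1, a cartilage collagen, stood at 6.15 to 247 CPM in the dexamethasone pools, against 1090 and 403 CPM in the saline pools. With the mean log2 level of these markers as a covariate, edgeR called no member, 23 of 37 fold changes were below 0 and the median was -0.18. Of all 11356 genes that fit called 23, against 306 without the covariate, and 50.1% lay below 0. The median SE of the members was 1.10 in that fit, against 0.57 without the covariate. Smooth muscle markers were at 1059 to 1164 CPM in the dexamethasone pools, against 1666 and 2017 CPM in the saline pools, cardiac muscle markers at 156 to 280 CPM, against 328 and 379 CPM, and mesothelial markers at 46.6 to 76.1 CPM, against 97.0 and 92.1 CPM. The other marker sums overlapped. Erythroid markers summed to 251 to 641 CPM in the dexamethasone pools, against 1495 and 271 CPM in the saline pools, and immune markers to 9.52 to 25.6 CPM, against 103 and 23.4 CPM, so that saline pool 1 alone was high in both. Endothelial sums were 39.6 to 154 CPM, against 124 and 38.2 CPM, epithelial sums 5.92 to 265 CPM, against 222 and 37.8 CPM, and mesenchymal sums 24236 to 35293 CPM, against 20840 and 27160 CPM. Xist, expressed in female cells, was at 374, 11111, 12.6 and 6.59 CPM in the dexamethasone pools and at 33133 and 20880 CPM in the saline pools. The Y-linked Ddx3y was at 74.4 to 174 CPM in the dexamethasone pools and at 1.20 and 0 CPM in the saline pools, so the sexes of the pooled fetuses differed. With the Xist covariate edgeR called no member, and the median was -1.17. Of all 11356 genes that fit called 186, and 51.2% lay below 0, against 35 of 37 members. Cartilage markers and Xist both divided the pools along the line of treatment. In these pools the covariate fits therefore cannot tell dexamethasone, cartilage content and sex apart. The part of the smooth muscle, cardiac, mesothelial, erythroid and immune markers in the fall of these genes was not tested.

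Origin licensing genes did not pass the test. Orc6, a subunit of the origin recognition complex, had 24.1, 28.9, 31.1 and 31.3 CPM in the dexamethasone pools, against 30.5 and 53.9 CPM in the saline pools. Gmnn, the inhibitor of Cdt1, had 2.37, 5.44, 5.40 and 10.9 CPM in the dexamethasone pools, against 1.80 and 11.9 CPM in the saline pools, with an edgeR log2 fold change of -0.13 (SE 0.81, adjusted p = 0.98). Cdc6, the loading ATPase, was at 0.947 to 9.46 CPM, against 8.38 and 8.23 CPM. In all 3 genes the groups overlapped. Orc1, another subunit of that complex, and the loader Cdt1 were too low to test, at no more than 3.06 and 9.86 CPM in the dexamethasone pools and 3.29 and 2.06 CPM in the saline pools.

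Of the helicase and the factors that start it, 10 of 11 had a log2 fold change below 0 (median -0.78), and the helicase genes other than Mcm5 did not pass the test. Mcm3, a ring subunit, had 6.15, 12.2, 13.5 and 10.9 CPM in the dexamethasone pools, against 20.3 and 37.8 CPM in the saline pools (edgeR log2 fold change -1.38, SE 0.46, adjusted p = 0.13). Mcm2, another ring subunit, had 9.47, 5.44, 11.7 and 15.8 CPM, against 20.3 and 25.9 CPM in the saline pools (edgeR -1.06, SE 0.49, adjusted p = 0.34). Gins2, of the GINS complex, had 0.710, 2.04, 2.70 and 2.64 CPM, against 5.39 and 8.64 CPM (edgeR -1.74, SE 0.93, adjusted p = 0.44). In these 3 genes every dexamethasone pool lay below both saline pools. Mcm4 did not show that order, with 30.1, 27.9, 31.1 and 33.6 CPM in the dexamethasone pools, against 21.5 and 90.1 CPM in the saline pools. Its 4 dexamethasone values lay between the 2 saline values (edgeR -0.78, SE 0.41, adjusted p = 0.43). The remaining ring subunits Mcm6 and Mcm7, the loading factor Mcm10, Cdc45 and the GINS subunits Gins1 and Gins3 had log2 fold changes of -1.31 to 0.52, and Mcm7 was the single helicase gene above 0.

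Both tested polymerase genes lay lower in every dexamethasone pool without passing the test. Pole, the catalytic subunit of the leading-strand polymerase, had 7.10, 18.4, 13.1 and 17.7 CPM in the dexamethasone pools, against 23.9 and 42.4 CPM in the saline pools (edgeR log2 fold change -1.17, SE 0.45, adjusted p = 0.22). Pola1, of the primase complex, had 12.8, 13.6, 18.9 and 23.0 CPM, against 35.3 and 32.9 CPM (edgeR -0.94, SE 0.40, adjusted p = 0.29). Pola1 lies on the X chromosome, and the sexes of the pooled fetuses differed, as given above. Pold1, of the lagging-strand polymerase, was too low to test, at 1.18 to 2.25 CPM in the dexamethasone pools and 5.98 and 2.06 CPM in the saline pools. Pcna, the sliding clamp, overlapped between the groups, with 21.5, 33.3, 32.9 and 39.6 CPM in the dexamethasone pools, against 28.1 and 59.2 CPM in the saline pools (edgeR -0.39, SE 0.37, adjusted p = 0.74). The clamp loader genes Rfc2, Rfc3 and Rfc4 and the single-strand binding gene Rpa2 had log2 fold changes of -0.82 to -0.0028, and the loader gene Rfc5 was too low to test, at no more than 3.60 CPM in any pool. Rfc4 had fractional counts in 10 of 11 bulk libraries, so its reads may be shared with a similar sequence.

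None of the genes that finish, supply, time or package the new strands passed the test. Lig1, the ligase that seals the lagging strand, had 17.3, 25.2, 12.6 and 16.2 CPM in the dexamethasone pools, against 15.6 and 52.6 CPM in the saline pools (edgeR log2 fold change -0.86, SE 0.45, adjusted p = 0.44). Rrm2, the small subunit of ribonucleotide reductase, had 5.44, 14.3, 13.5 and 9.05 CPM, against 16.2 and 28.8 CPM (edgeR -1.03, SE 0.50, adjusted p = 0.37). Rrm2 was the one nucleotide supply gene without overlap. The flap nuclease Fen1 and the exonuclease Exo1 had log2 fold changes of -0.91 and -1.25. The other nucleotide supply genes, Rrm1, the thymidylate synthase Tyms, the thymidine kinase Tk1 and the dUTPase Dut, ran from -0.92 to -0.38. Among G1/S regulators, the activator E2f1 had 4.02, 0.340, 4.95 and 2.26 CPM, against 7.18 and 8.64 CPM in the saline pools, the repressor E2f8 overlapped, E2f2 and the cyclin Ccne2 lay above 0 at 0.23 and 0.15, and the cyclin Ccne1 was at no more than 2.70 CPM and not tested. Ccne2 had fractional counts in all 11 bulk libraries and is uncertain for that reason. The chromatin assembly genes Chaf1a and Chaf1b and Uhrf1, which recruits the maintenance DNA methylase, had log2 fold changes of -0.93, -1.15 and -0.93.

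In all, 11 of the 37 members (29.7%) had every dexamethasone pool below both saline pools, against 13.0% of all genes tested, and 0 had the reverse order (9.99%). They were Brca1, Mcm5, Mcm3, Pole, Pola1, Mcm2, Rrm2, Gins2, Uhrf1, E2f1 and Rfc3. An unadjusted p under 0.05 by edgeR was reached by 6 members, all lower (16.2%, against 6.09% of all genes), and by 0 that were higher (7.74%).

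Genes around the list gave few calls. Mki67, a marker of cycling cells, fell to 385, 422, 612 and 359 CPM in the dexamethasone pools, against 765 and 1092 CPM in the saline pools, and the groups did not overlap (edgeR log2 fold change -0.996, SE 0.23, adjusted p = 0.025; passed in 10 of 17 alternatives). It was the 1 call among 20 mitosis genes, of which 19 lay below 0 (median -0.95), and Top2a, the mitotic topoisomerase, missed the threshold at -0.98 (adjusted p = 0.099). None of 40 other replication genes tested passed, and 30 lay below 0 (median -0.36); the smallest p was that of Nasp, a histone chaperone, at 26.3, 56.1, 60.3 and 37.0 CPM in the dexamethasone pools and 107 and 103 CPM in the saline pools (edgeR -1.17, adjusted p = 0.058). Among 20 other G1/S regulators, Ccnd2, a D-type cyclin, fell to 73.6, 54.7, 82.9 and 83.7 CPM, against 192 and 138 CPM in the saline pools (edgeR -1.11, SE 0.26, adjusted p = 0.028). Its partner kinase Cdk6 rose to 303, 239, 317 and 246 CPM, against 141 and 153 CPM in the saline pools (edgeR 0.97, SE 0.23, adjusted p = 0.028). Ccnd2 passed in 11 and Cdk6 in 9 of 17 alternatives, and neither gene's groups overlapped.

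**Figure D3:**
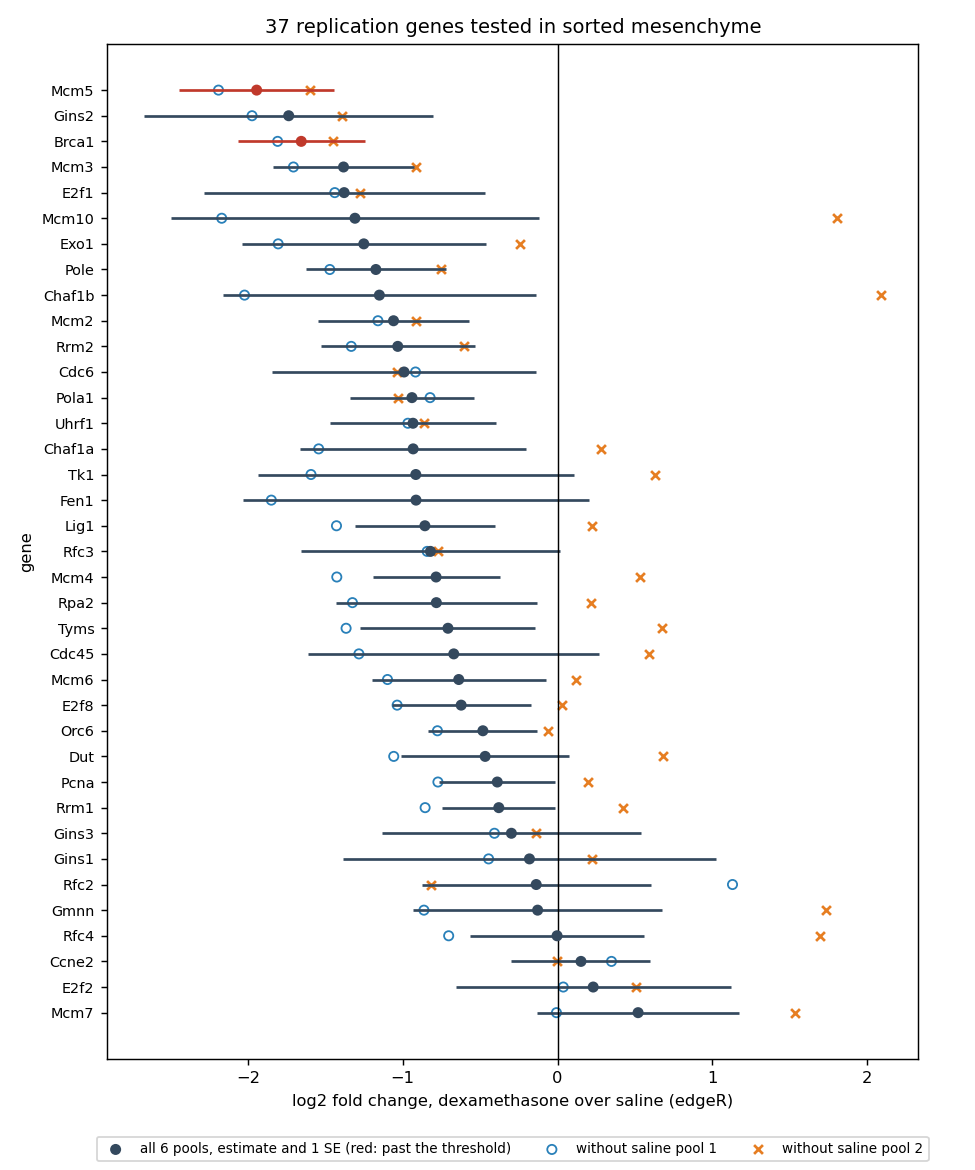
edgeR log2 fold change, dexamethasone over saline, of the 37 members tested in sorted mesenchyme, with 1 SE (filled points, red where past the threshold), and the estimate without saline pool 1 (open circles) or without saline pool 2 (crosses; none for Fen1, which had no count in the remaining saline pool). Without saline pool 2, 18 of 39 members tested lie below 0 (all genes, 46.7%), against 34 of 37 with all pools (all genes, 50.9%).

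The second comparison asks whether replication genes differed between cells with and without CD106 at E18.5. They did so in 1 case: E2f2, an E2F factor that activates S-phase genes, was lower in CD106+ cells, while the 41 other members did not pass the test and none was higher. All 42 members were tested by edgeR, and of 12364 genes 3.35% were lower, 6.67% higher and 10.0% either. E2f2 (chr4:136172274-136196057, GRCm38.p6) had 42.1 and 41.8 CPM in the CD106+ libraries, against 105 and 88.6 CPM in the CD106- libraries. Its groups did not overlap, at 41.9 ± 0.237 CPM and 96.8 ± 11.6 CPM (SD, n = 2 each), with an edgeR log2 fold change of -1.24 (SE 0.28, adjusted p = 0.0041). It passed in 12 of 13 alternatives, with adjusted p of 3.8e-05 to 0.14, and was lost without CD106- library 1.

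E2f2 is also known to be expressed in erythroid precursors, and the fractions differed in cell markers. Erythroid markers summed to 7.90 and 10.6 CPM in the CD106+ libraries, against 48.5 and 78.9 CPM in the CD106- libraries. Epithelial markers summed to 2609 and 4275 CPM, against 6126 and 5470 CPM, and mesenchymal markers to 7291 and 13936 CPM, against 1004 and 1398 CPM. Endothelial sums were 119 and 92.1 CPM in the CD106+ libraries, against 22.7 and 15.98 CPM in the CD106- libraries, smooth muscle sums 287 and 650 CPM, against 128 and 263 CPM, and immune sums 7.42 and 14.9 CPM, against 3.27 and 3.16 CPM. Mesothelial sums were 55.3 and 101 CPM in the CD106+ libraries, against 213 and 183 CPM in the CD106- libraries, and cartilage sums 122 and 110 CPM, against 224 and 221 CPM, while cardiac muscle sums, at 971 and 71.4 CPM against 92.9 and 23.0 CPM, overlapped. In the mesenchymal pools, E2f2 stood at 1.70 to 9.43 CPM in the dexamethasone pools and 3.59 and 5.35 CPM in the saline pools, where erythroid sums were 251 to 641 CPM and 1495 and 271 CPM. The part of these cell types in the E2f2 difference was not tested.

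The other 41 members lay near the middle of all genes. The median log2 fold change over the 42 was 0.04, against 0.05 over all genes, and 18 lay below 0. An unadjusted p under 0.05 was reached by 1 member (2.38%), which was lower, against 8.44% of all genes lower and 19.8% either way. After E2f2 the smallest p values were those of the GINS subunit Gins1, with 27.1 and 18.4 CPM in the CD106+ libraries, against 12.9 and 12.2 CPM in the CD106- libraries (edgeR 0.83, adjusted p = 0.30), and of Mcm4, with 161 and 190 CPM, against 122 and 123 CPM (edgeR 0.48, adjusted p = 0.35). Neither group pair overlapped. Cdc6 (-0.52), Rfc4 (0.49), Tyms (-0.34), Pola1 (-0.32), Ccne1 (0.68), Tk1 (0.49) and Pole (-0.30) followed, with edgeR adjusted p of 0.46 to 0.65. Mcm5 and Brca1, the members called in mesenchyme, were at 0.03 and 0.01, Mcm5 with 37.5 and 76.1 CPM in the CD106+ libraries and 63.5 and 43.8 CPM in the CD106- libraries. Groups did not overlap in 6 members that were lower in CD106+ cells (14.3%; all genes, 22.1%) and in 5 that were higher (11.9%; 25.7%). By edgeR, none of 45 other replication genes and none of 20 mitosis genes passed, and among 21 other G1/S regulators Ccnd1, a D-type cyclin, was lower in CD106+ cells, at 125 and 104 CPM against 268 and 207 CPM in CD106- cells (-1.08, adjusted p = 0.011). The Ccnd1 call was lost without either CD106- library.

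Nearly all replication genes were lower in the dexamethasone CD106+ library than in the CD106+ libraries, but it is 1 library in a table of its own, so the difference has no replicate check. Of the 42 members, 41 were lower in it than the mean of the CD106+ libraries, as were 40.1% of all genes, a set that includes genes without counts, and 60.5% of genes at 10 CPM or more. Of the members, 29 (69.0%) were 2-fold or more lower, against 10.8% of all genes and 17.7% of genes at 10 CPM or more. None was 2-fold higher, against 9.30% and 11.9%. The median log2 ratio of CPM plus 1 was -1.53, and that of genes at 10 CPM or more was -0.23. In 39 members the level was below both CD106+ libraries (28.0% of all genes, 47.8% of those at 10 CPM or more), and in 38 it was below those and both CD106- libraries (21.2%, 39.1%). Between CD106+ libraries 1 and 2 themselves, 5 members differed 2-fold or more, all lower in library 1, and the median log2 ratio was -0.19. The same figures over all genes were not taken, so whether this is usual for these libraries is not known.

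The ratios ranged widely by role. Of 4 licensing genes at 10 CPM or more, 0 were 2-fold lower (median -0.62), against 10 of 11 helicase genes (-1.72), 3 of 3 polymerase genes (-1.94), 5 of 5 nucleotide supply genes (-1.66), 4 of 6 clamp and loader genes (-1.56), 2 of 3 genes of the flap and ligase group (-1.54), 2 of 3 chromatin genes (-1.95) and 2 of 4 G1/S regulators (-0.84). Orc6 was the one member that lay higher, at 63.3 CPM in the dexamethasone CD106+ library, against 48.7 and 54.9 CPM in the CD106+ libraries. Gmnn had 12.4 CPM, against 22.9 and 19.6 CPM, and Ccne1 had 7.91 CPM, against 9.42 and 7.29 CPM. The dexamethasone value of Ccne1 thus lay between the CD106+ values.

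The largest ratio was that of the exonuclease gene Exo1, with 2.90 CPM in the dexamethasone CD106+ library (95% Poisson interval 1.45 to 5.19, counting error only), against 26.3 and 40.5 CPM in the CD106+ libraries (log2 ratio -3.14). Mcm10 had 2.37 CPM (1.09 to 4.51), against 21.3 and 19.8 CPM (-2.67). Both intervals ended below either CD106+ value. Chaf1b had 2.37 CPM, against 9.42 and 22.8 CPM, Gins2 had 6.72 CPM, against 16.2 and 59.0 CPM, and Pold1 had 1.58 CPM, against 3.61 and 19.2 CPM. In these 3 genes the CD106+ libraries differed more than 2-fold from each other. The clamp loader gene Rfc5 had 1.58 CPM, against 12.2 and 10.4 CPM. Of members at higher levels, Rrm2 had 24.3 CPM (19.6 to 29.8), against 154 and 97.4 CPM (-2.33), and Brca1 had 27.4 CPM (22.4 to 33.2), against 157 and 121 CPM (-2.30). Other members at high levels had smaller ratios, such as Rrm1 (-1.66), Mcm4 (-1.72) and Lig1 (-1.54). Pcna had 45.9 CPM, against 93.8 and 118 CPM (-1.19), Mcm2 had 18.7 CPM, against 42.1 and 78.1 CPM (-1.63), and Mcm5 had 19.0 CPM, against 37.5 and 76.1 CPM (-1.53).

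The neighbouring lists were lower as well: 20 of 20 mitosis genes were 2-fold or more lower (median -1.81), with Mki67 at 985 CPM, against 3276 and 2215 CPM, as were 28 of 42 other replication genes at 10 CPM or more (-1.18) and 9 of 21 other G1/S regulators (-0.77). The 10 glucocorticoid target genes summed to 2721 CPM in the dexamethasone CD106+ library, against 652 and 897 CPM in the CD106+ libraries, and 8 of them were 2-fold or more higher.

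The dexamethasone CD106+ library also differed in cell markers, and held more endothelial, immune and erythroid marker RNA. Endothelial markers, 8 of 8 detected, summed to 2400 CPM, against 119 and 92.1 CPM in the CD106+ libraries, and Pecam1, which encodes CD31, stood at 508 CPM, against 22.1 and 16.54 CPM. Immune markers summed to 106 CPM, against 7.42 and 14.9 CPM, and erythroid markers to 56.9 CPM, against 7.90 and 10.6 CPM. Epithelial markers summed to 1650 CPM, against 2609 and 4275 CPM, while mesenchymal markers, at 14311 CPM, lay above both CD106+ libraries at 7291 and 13936 CPM. Cartilage markers, at 56.7 CPM against 122 and 110 CPM, and smooth muscle markers, at 229.8 CPM against 287 and 650 CPM, were below both, while cardiac muscle (193 CPM, against 971 and 71.4 CPM) and mesothelial sums (93.7 CPM, against 55.3 and 101 CPM) lay between the CD106+ values. The part of this makeup in the lower replication genes was not tested.

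**Figure D4:**
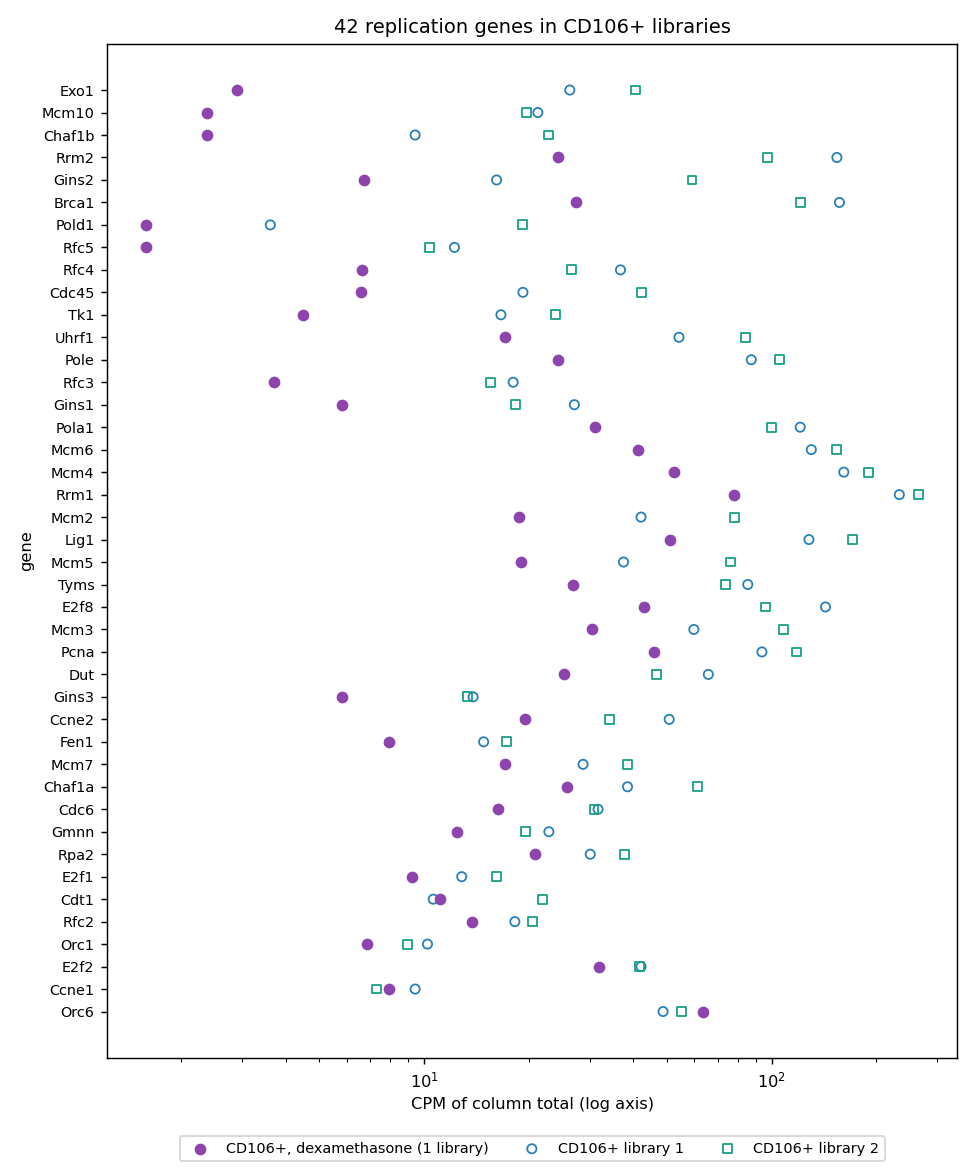
CPM of each of the 42 genes on a log axis in the dexamethasone CD106+ library (filled purple) and in CD106+ libraries 1 (open circles) and 2 (open squares), ordered by log2 ratio. The filled points lie left of both open ones in 39 genes, and Orc6 at the foot is the one gene with the filled point at the right.

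In single cells 24 hours after injection, 1 cell of each group had counts of more replication genes than any other. Dexamethasone cell 9 and saline cell 2 each had 26 of the 42 members with a count, 20 of them shared, while the 14 other dexamethasone cells had 1 to 9 and the 10 other saline cells 2 to 14. Of all genes, 20.0% had a count in dexamethasone cell 9 and 23.6%, the most of any cell, in saline cell 2. The median cell had 6 members after dexamethasone and 8 after saline, at median totals of 852850 and 1349760 counts. Median numbers of genes with a count were 3435 and 5114. Thinned to 400000 counts, with 2 dexamethasone cells too shallow for it, the medians were 5 and 5. A member was detected in a median of 3 of the 26 cells, and Gins3, Pold1, Exo1, E2f8 and Chaf1b in none. The cells were not clustered and no doublet caller was run.

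Dexamethasone cell 9 held 48.6% of the member counts of its group from 13.6% of its counts, at 5283 CPM in all, with Rrm1 at 1591 CPM and Rrm2 at 1036 CPM. Saline cell 2 held 40.5% of the member counts of its group from 10.3% of its counts, at 3487 CPM, and its leading member was Gins2 at 546 CPM. All 5 nucleotide supply genes had counts in both cells, while Gmnn and Mcm10 had counts in no cell outside this pair. The cells differed in mitosis genes, which summed to 984 CPM in dexamethasone cell 9, with 9 of 20 detected, and to 43.8 CPM in saline cell 2, with 10 of 20 detected. Mki67 was at 96.5 CPM in dexamethasone cell 9 and at 1.31 CPM in saline cell 2. They also differed in lineage markers: mesenchymal markers summed to 22066 CPM and endothelial ones to 1574 CPM in dexamethasone cell 9, while smooth muscle markers summed to 16385 CPM and mesenchymal ones to 1964 CPM in saline cell 2. Dexamethasone cell 14 stood apart in another way, with 7 of 8 erythroid markers at a sum of 186700 CPM, and it gave 16.3% of the member counts of its group. Its 9 members with a count summed to 4065 CPM, above the sum of saline cell 2. Mitosis genes summed to 1501 CPM in dexamethasone cell 14, with Mki67 at 453 CPM, both above the values of dexamethasone cell 9.

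**Figure D5:**
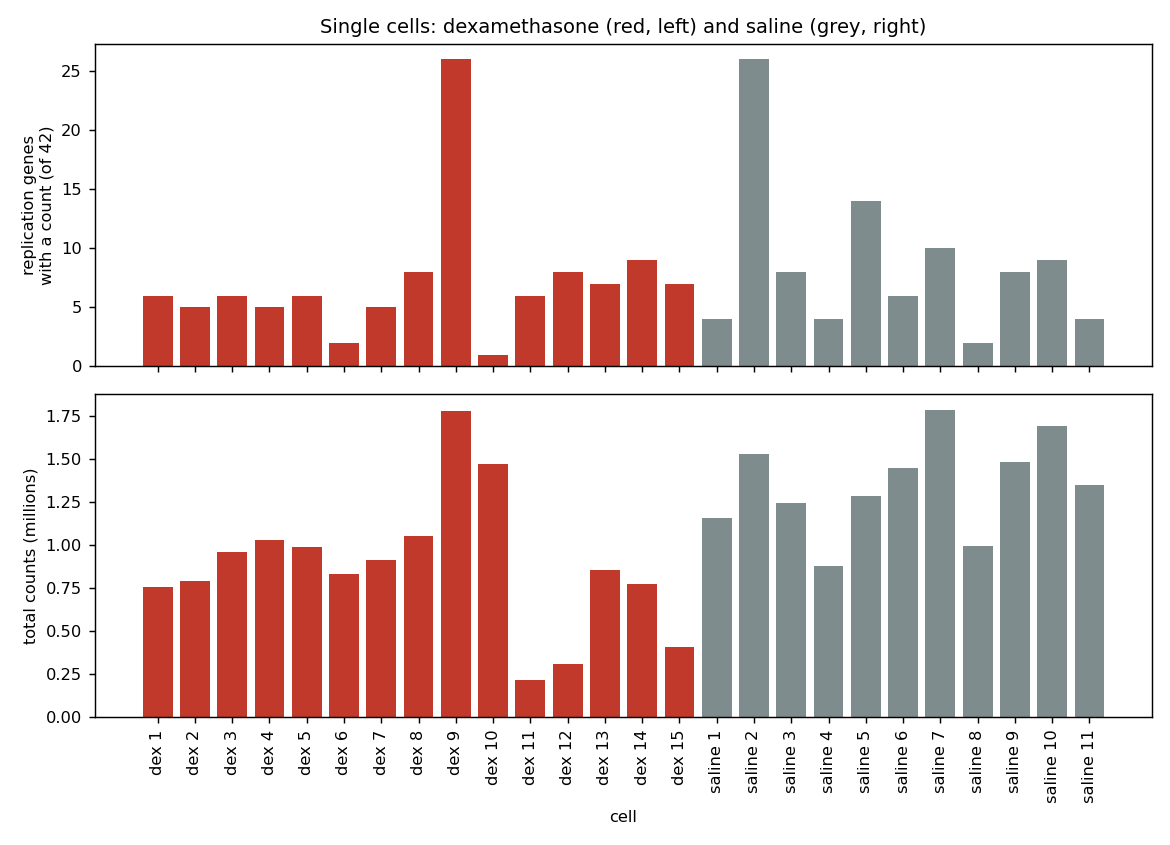
Number of the 42 members with at least 1 count (top) and total counts (bottom) in 15 dexamethasone cells (red, left) and 11 saline cells (grey, right). Dexamethasone cell 9 and saline cell 2 reach 26 members each, and the next cell, saline cell 5, has 14.

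Summed over cells, the groups showed no common direction. Of the 42 members, 12 (28.6%) were 2-fold or more higher in dexamethasone cells and 10 (23.8%) were 2-fold or more lower, against 13.4% and 17.4% of all genes. Among the 27 members at 10 CPM or more the counts were 10 and 9 (37.0% and 33.3%), against 29.3% and 36.5% of such genes. The median log2 ratio of these 27 was -0.31, against -0.20 over such genes. Over the 42 it was 0.00, a value set by the members without a count in any cell. With 1 sample per group no test was made.

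Single cells made most of the largest ratios. Orc1 had 99.3 CPM over dexamethasone cells and 0.269 CPM over saline cells, and all of the dexamethasone counts came from the erythroid-marked cell 14. E2f2 had 23.5 CPM, against 0.0674 CPM over saline cells, and 99.7% of its dexamethasone counts were in that same cell, where it stood at 396 CPM. Without dexamethasone cell 14, 10 members were 2-fold higher and 11 lower. No share of all genes is given for that set of cells, so these counts are not a result about the members. Rrm1 had 301 CPM, against 9.63 CPM over saline cells, with 71.8% of its dexamethasone counts in cell 9, and the cyclin gene Ccne2 had 46.5 CPM, against 0.450 CPM, with 68.3% in cell 3. Dut, whose product removes dUTP, had 87.4 CPM, against 3.97 CPM, with 41.5% in cell 6. On the other side, Gins2 had 0.0762 CPM over dexamethasone cells, from 1 count (95% Poisson interval 0.00193 to 0.425 CPM), against 75.8 CPM over saline cells, with 74.2% in saline cell 2. Tyms had 0.0762 CPM, also from 1 count, against 36.7 CPM over saline cells, with 88.4% in saline cell 2. E2f1 had no count over dexamethasone cells (0 to 0.281 CPM), against 36.9 CPM over saline cells, with 96.7% in saline cell 6. The members found most widely did not share a direction. Pcna had counts in 7 of 15 dexamethasone cells and 8 of 11 saline cells, at 63.4 and 78.8 CPM. Mcm4 had counts in 7 and 7 cells, at 168 and 112 CPM, and Rfc2 in 8 and 6, at 23.2 and 77.1 CPM.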

How the data were processed

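The series holds 11 bulk RNA libraries, 26 single cells and 4 chromatin accessibility samples, and the accessibility samples were not analysed here. The authors deposited expected counts per gene symbol in 4 tables: 4.74 to 8.91% of the values in a bulk library, and 0.825 to 2.51% in a cell, were not whole, which can happen where reads are split between similar genes. The submitters' processing notes name the genome build mm10 and the tools Trim Galore, TopHat2, Partek, Bowtie2, HOMER and MACS2, without roles. How reads were counted, and whether by strand, is not given in the sources used here. Rn45s, a ribosomal RNA precursor, took 0.902 to 9.83% of the counts of a bulk library. The dexamethasone CD106+ column is headed by a code absent from the labels and was matched through the only sample description that names its table.

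Values were first rounded to integers. After filterByExpr and TMM scaling, groups were tested by the quasi-likelihood test of edgeR 4.0.16 (robust; R 4.3.3, limma 3.58.1), with Benjamini-Hochberg adjustment over every gene tested and a threshold of 0.05, and each fit held the compared groups alone. Where a group had 1 sample (the dexamethasone CD106+ library, the single cells), log2 ratios used CPM plus 1, a limit of 2-fold and exact 95% Poisson intervals, which cover counting error only. Detection in cells meant a rounded count of 1 or more. Motifs were searched in RefSeq promoter windows, and plots were drawn with matplotlib 3.10.9. Replicates differed beyond sampling noise, at 9.15 to 37.9 chi-square per degree of freedom. Both tests were tried on 1 simulated set of counts each, holding planted changes, of which most of the 2-fold ones were missed. The share of false calls lay above the nominal rate in both sets, but 1 set each is too little to measure that share.

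The members and the lists of other genes and cell markers were chosen with earlier results of these data known. Named are members past the threshold, the 10 with the smallest p in each tested comparison, the 8 with the largest ratio at 10 CPM or more in each other comparison, Mcm2, Mcm5, Pcna, Rrm2, Ccne1, Gmnn and Mki67, and up to 4 of each neighbouring list by smallest p; other members are given to complete their role. The alternatives changed the scaling, the filter, the tool (DESeq2 1.42.0, limma-voom) or the pseudocount, added the replicate number, Xist or cartilage markers to the model, left out Rn45s, single libraries or Pecam1-positive cells, or fitted 5 CD106 libraries together. Leaving out dexamethasone cell 14, or cell 9 with saline cell 2, was chosen after seeing the data.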

Additional observations from a re-analysis of the deposited data

Results flagged for a closer look

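Mcm5, a subunit of the helicase ring, was at 9.01 CPM in dexamethasone mesenchymal pool 3, against 5.21, 5.10 and 4.90 CPM in the other 3 dexamethasone pools. The gap between pool 3 and its nearest neighbour, as a share of the range of the 4 pools, passed the 95% critical value of Dixon's test for 4 samples. This was 1 of 44 groups of values examined in this way, and chance marks about 1 in 20. Both saline pools, at 18.6 and 30.0 CPM, lay above pool 3.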

How the results depend on the processing

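The fall of Brca1 and Mcm5 in dexamethasone mesenchyme held under the other scalings, filters and tools tried. The members called were 2 in the fit reported and 0 with the replicate number as a block, 0 with the Xist covariate and 0 with the cartilage covariate. The median was -0.82 as reported, -0.95 with the block, -1.17 with Xist and -0.18 with cartilage. All genes called were 306 as reported, 512 by DESeq2, 598 with no filter, 154 with the block, 186 with Xist and 23 with cartilage. Leaving out each pool gave 0 to 2 members called and medians of -1.13 to 0.12, the highest without saline pool 2; all genes called ran from 179 to 335. The correlation of same-numbered deviations was 0.032 in mesenchyme, from pools 1 and 2 of each group alone, and 0.012 in the CD106 set. With so few libraries these low values do not exclude that same-numbered samples are pairs. Members that missed the threshold changed sign in some fits: with the cartilage covariate Pcna was 0.023 and Gmnn 0.56, and with pools left out Gmnn ran from -0.86 to 1.74, Lig1 from -1.43 to 0.22, Mcm4 from -1.43 to 0.53 and Pcna from -0.77 to 0.20. In the CD106 comparison 1 member was called as reported, and 0 to 2 with each library left out, at medians of -0.13 to 0.14. All genes called there were 1239, and 546 to 2756 with a library left out. Mcm5 was -0.015 with the replicate block. With each library left out, Mcm5 ran from -0.47 to 0.40, Mcm2 from -0.17 to 0.57, Mki67 from -0.53 to 0.18, Pcna from -0.059 to 0.14 and Rrm2 from -0.41 to 0.40. For the dexamethasone CD106+ library the median was -1.53 as reported, -1.35 with a pseudocount of 5 CPM and -1.38 on TMM-scaled totals. Without either CD106+ library it was -1.69 to -1.32, with 26 to 30 members past 2-fold. In single cells the median of 0.00 became -0.31 without Pecam1-positive cells and, chosen after seeing the data, -0.030 without dexamethasone cell 14. The causes of these changes were not tested. Few counts limit the low members in mesenchyme, and 2 saline pools limit every call there.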
